A study of Rattus norvegicus with 6 samples.

Results

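The 10 genes described here are known to be switched on by injured renal tubule cells or to mark tubule cells with progenitor features, and were followed on microarrays of rat renal cortex after chlorothalonil, a chlorinated nitrile fungicide. They are the keratins Krt8, Krt18, Krt19 and Krt20, the filament protein vimentin (Vim), annexin A2 (Anxa2), the surface proteins prominin 1 (Prom1) and Cd24, and the transcription factors Sox4 and Sox9. Probes other than control spots were taken as members where their accession was a RefSeq transcript of one of the 10 genes. This gave 19 probes for 9 of the 10 genes, among 15639 genes named on the array. No probe matched Sox9, so it was not analysed here. The probe of Krt20 was not well above background on any array. The other 18 probes, of 8 genes, passed that flag on each of the 6 arrays and were tested.

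The animals were male Sprague-Dawley rats, 5 weeks old when purchased. In the chlorothalonil group, 3 rats received 500 mg/kg/day for 4 weeks, and in the corn oil group 3 rats received the vehicle for 4 weeks. Each rat gave 1 array, so n is 3 per group throughout. The source name of chlorothalonil replicate 3 states ethylenediamine dihydrochloride, against its title, treatment and dose labels, and values without it are given where they bear on a result. All chlorothalonil arrays lay on 1 slide and all corn oil arrays on another, scanned on different days. Every difference given here is therefore also one between slides, and treatment and slide cannot be told apart. Of the listed markers of the cortex, all 30 of the proximal tubule and all 10 of podocytes and parietal epithelium were measured.

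After injury, a proximal tubule cell can flatten, lose part of its transport machinery and take on features of an immature epithelial cell before it divides or redifferentiates. Keratins of simple epithelia, vimentin, annexin A2 and SOX9 are widely used to mark that state, while prominin 1 and CD24 are used to mark scattered tubular cells and, in human kidney, parietal epithelial cells with progenitor features. Keratins work as obligate pairs of a type I and a type II chain. Krt8 is the type II partner, and Krt18, Krt19 and Krt20 are type I chains. In whole cortex, a change in the number of cells of a type and a change in RNA per cell cannot be told apart.

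Signals are given as the processed spot intensity divided by the array's own 75th percentile of it over all probes other than controls, and their log2 is the scale of every fold change. A level of 1 is therefore the 75th percentile of that array. Differences are chlorothalonil minus corn oil from a limma fit over 29115 features (1 per gene or unnamed transcript, taking the brightest probe), with the Benjamini-Hochberg adjusted p over all of them and a threshold of 0.05. Of these features, 909 changed, which is 3.12%, with 1.3% higher and 1.82% lower. Of the changed features 41.6% were higher, against 54.2% with scaling to the array median and 72.4% with scaling to spike-in RNAs. The number of arrays limits the precision. The array annotation gives no sequence of the probes, so the regions shown are the upstream regions of 4 members, as RefSeq gives them in assembly GRCr8. Krt8 and Krt18 are shown as a keratin pair whose genes lie close together on chromosome 7, Anxa2 as the member with the smallest standard error, and Prom1 as the member with the largest difference relative to its error. Each line is the 250 bases before the annotated start, 5′ to 3′ on the strand of the gene. Capitals mark matches on either strand to TATAAA, to the GC box GGGCGG, to the AP-1 motif TGANTCA, to CCAAT or to the core of the antioxidant response element TGACNNNGC.
Krt8 (chr7:135010340-135010589, minus strand): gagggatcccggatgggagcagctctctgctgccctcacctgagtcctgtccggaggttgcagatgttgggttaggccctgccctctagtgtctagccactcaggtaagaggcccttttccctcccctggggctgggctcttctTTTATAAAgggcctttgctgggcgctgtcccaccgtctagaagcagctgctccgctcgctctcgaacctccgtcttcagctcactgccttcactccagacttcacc
Krt18 (chr7:135035918-135036167, plus strand): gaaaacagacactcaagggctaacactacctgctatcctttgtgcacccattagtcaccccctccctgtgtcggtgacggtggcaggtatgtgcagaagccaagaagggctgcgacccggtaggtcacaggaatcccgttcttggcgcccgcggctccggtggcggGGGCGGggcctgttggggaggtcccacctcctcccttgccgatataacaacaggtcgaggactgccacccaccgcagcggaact
Anxa2 (chr8:78986002-78986251, plus strand): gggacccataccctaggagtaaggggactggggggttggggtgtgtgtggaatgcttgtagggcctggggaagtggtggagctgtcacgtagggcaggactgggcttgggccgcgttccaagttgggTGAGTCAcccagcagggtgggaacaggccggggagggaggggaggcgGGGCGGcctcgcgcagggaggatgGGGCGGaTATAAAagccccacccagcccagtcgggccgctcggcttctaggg
Prom1 (chr14:71202395-71202644, plus strand): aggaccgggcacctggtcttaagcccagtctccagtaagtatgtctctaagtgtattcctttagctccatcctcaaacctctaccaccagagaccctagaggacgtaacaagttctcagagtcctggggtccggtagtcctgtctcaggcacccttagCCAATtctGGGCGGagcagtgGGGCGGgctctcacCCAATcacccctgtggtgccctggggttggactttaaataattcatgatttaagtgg

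In these letters, the Krt8 region held 2 overlapping matches to TATAAA, which begin 106 and 104 bases before the start. The Krt18 region held 1 GC box, 84 bases before the start, and no TATAAA. The Anxa2 region held an AP-1 match 123 bases before the start, GC boxes at 76 and 52 bases, and TATAAA at 45. The Prom1 region held GC boxes at 84 and 71 bases and CCAAT at 92 and 57. Of 33469 upstream regions of this length in the table, 12.9% held TATAAA, 30.5% a GC box, 6.34% the AP-1 motif, 34.0% CCAAT and 10.1% the antioxidant core. Windows were found for 7 of the 10 genes, 8 windows in all since Prom1 has 2 annotated starts, and the antioxidant core was in 2 of the 8, those of Krt20 and Cd24. These matches describe the letters, and nothing about binding follows from them.

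Of the 8 tested genes, 0 passed the threshold in limma, against 3.12% of all features. Prom1 came closest, with levels below those of corn oil on every chlorothalonil array, while Krt18, Krt19, Vim and Anxa2 had levels above those of corn oil on every chlorothalonil array. At an unadjusted limma p under 0.05 there were 5 of the 8 genes, 4 higher and 1 lower, against 19.7% of all features (9.6% higher and 10.1% lower). The groups did not overlap for the same 5 genes, against 27.7% of all features (13.6% higher and 14% lower). The genes were chosen with these values known, so neither count is a result about them. The median log2 difference of the 8 genes was 0.20, and that of all features was 0.00.

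**Figure D1:**
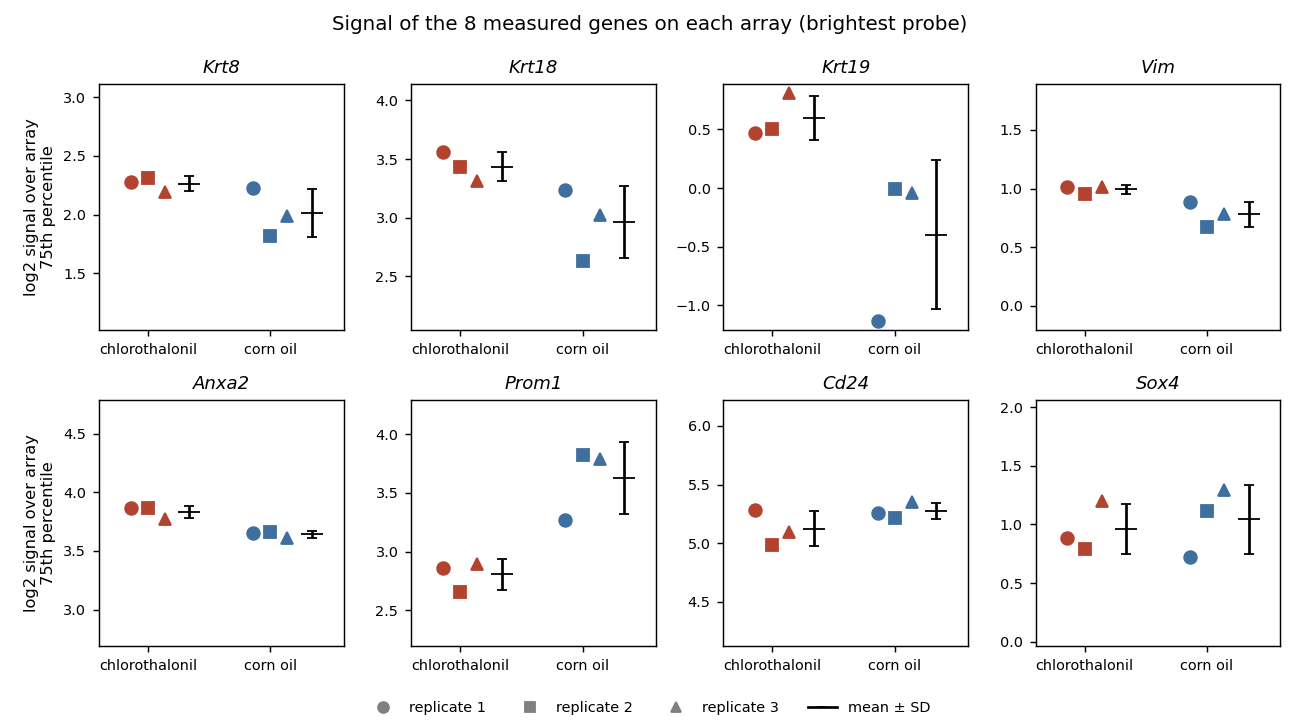
Log2 signal of the 8 tested genes on each array, relative to the array's 75th percentile, with chlorothalonil on the left and corn oil on the right of each panel; symbols are replicates, bars are mean ± SD of 3 arrays, and every panel spans the same range of log2 units. The groups are apart for Krt18, Krt19, Vim, Anxa2 and Prom1 and overlap for Krt8, Cd24 and Sox4.

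Among the keratins, Krt19, a type I chain of simple and ductal epithelia, had the largest difference. Its level was 1.38, 1.42 and 1.76 times the 75th percentile in chlorothalonil replicates 1 to 3, against 0.456, 0.992 and 0.969 in corn oil replicates 1 to 3. All chlorothalonil arrays lay above all corn oil arrays, and corn oil replicate 1 lay far below the other two. The log2 fold change was 0.99 ± 0.32 (SE), a 1.99-fold higher level with a 95% confidence interval of 1.15 to 3.44, and the limma adjusted p was 0.175. Without corn oil replicate 1 the log2 fold change was 0.63, with an adjusted p of 0.111. Without chlorothalonil replicate 3 it was 0.88, with an adjusted p of 0.339, and Krt19 did not pass without any 1 of the 6 arrays.

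Krt18, the type I partner of Krt8 in simple epithelia, was measured by 3 probes. On the brightest, its level was 11.8, 10.8 and 9.96 in chlorothalonil replicates 1 to 3, against 9.41, 6.18 and 8.11 in corn oil replicates 1 to 3. Every chlorothalonil array was above every corn oil array, and the narrowest gap was between chlorothalonil replicate 3 and corn oil replicate 1. The log2 fold change was 0.48 ± 0.17 (SE), with a 95% confidence interval of 0.07 to 0.89 and a limma adjusted p of 0.198. The other two probes both gave 0.50, also without overlap of the groups. Without corn oil replicate 2, the lowest array, the log2 fold change was 0.31, with an adjusted p of 0.292.

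Krt8, the type II chain that pairs with Krt18, had 1 probe. Its level was 4.86, 4.97 and 4.57 with chlorothalonil, against 4.69, 3.53 and 3.96 with corn oil, in the order of the replicates. Corn oil replicate 1 lay above chlorothalonil replicate 3, so the groups overlapped. Krt8 had a log2 fold change of 0.25 ± 0.12 (SE), with a 95% confidence interval of −0.03 to 0.54 and a limma adjusted p of 0.306. Corn oil replicate 2 had the lowest signal and corn oil replicate 1 the highest corn oil signal for both chains of this pair. Without corn oil replicate 2, the log2 fold change of Krt8 was 0.16.

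Krt20, a type I chain of urothelium and gut that is known to appear in injured tubules of mice, was not measurable on these arrays. Its probe gave a level of 0.00835, 0.00468 and 0.00527 in chlorothalonil replicates 1 to 3, against 0.0112, 0.00788 and 0.0085 in corn oil replicates 1 to 3. The lowest level called well above background on an array was between 0.0181 and 0.0204 with chlorothalonil and between 0.0211 and 0.0338 with corn oil, so each value was below it, and no fold change is given.

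Vimentin, the intermediate filament of mesenchymal and dedifferentiated epithelial cells, was 2.02, 1.93 and 2.02 with chlorothalonil, against 1.85, 1.596 and 1.72 with corn oil. The chlorothalonil arrays lay closely together and above all corn oil arrays. Its log2 fold change was 0.21 ± 0.08 (SE), with a 95% confidence interval of 0.02 to 0.40 and a limma adjusted p of 0.209. With normexp on the median spot signal together with quantile normalization it was 0.10, with an adjusted p of 0.48. Annexin A2, a calcium-dependent membrane-binding protein that pairs with S100a10, had levels of 14.5, 14.5 and 13.7 with chlorothalonil, against 12.6, 12.7 and 12.2 with corn oil on its brighter probe. There the groups were apart and the log2 fold change was 0.19 ± 0.06 (SE), with an adjusted p of 0.175. Its second probe gave 0.06 ± 0.10 and overlapping groups, so its probes disagree on whether the groups are apart.

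Beside these small differences stands a difference between the arrays themselves. Agilent E1A spike-in RNAs, added during labelling, had lower scaled signals on the chlorothalonil slide for 7 of the 8 spike-in probes that were well above background, 4 of them without overlap. Their log2 differences ran from −0.34 to 0.05, with a median of −0.13, which is of the size of the values of Vim and Anxa2. Scaling the arrays to these spike-ins moved the median of all features by 0.15 and gave log2 fold changes of 0.36 for Vim, 0.34 for Anxa2, −0.68 for Prom1 and −0.01 for Cd24, with adjusted p of 0.0794, 0.113, 0.097 and 0.968 in limma. The part of the spike-in difference in these values was not tested.

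Prom1, a pentaspan glycoprotein of membrane protrusions known as CD133 in human cells, was measured by 4 probes. On the brightest, its level was 7.26, 6.31 and 7.44 in chlorothalonil replicates 1 to 3, against 9.66, 14.2 and 13.8 in corn oil replicates 1 to 3. Corn oil replicate 1 was the lowest corn oil array, still above every chlorothalonil array. The log2 fold change was −0.82 ± 0.17 (SE), or 0.565 of the corn oil level with a 95% confidence interval of 0.425 to 0.753, and the limma adjusted p was 0.0689. By p-value it ranked 1211 among the 29115 features.

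The other Prom1 probes gave log2 fold changes of −0.93 ± 0.15, −0.87 ± 0.15 and −0.66 ± 0.22 (SE). On all 4 probes the groups did not overlap, and corn oil replicate 1 was the lowest corn oil array. Tested probe by probe over 39862 kept probes, of which 2.67% passed and 1.43% were lower, 1 of the 4 fell at an adjusted p of 0.0432 in limma, and the other three had 0.0506, 0.0733 and 0.189. The 4 probes measure 1 transcript in the same animals and are not independent. Without corn oil replicate 1 Prom1 fell, with a log2 fold change of −1.0 and an adjusted p of 0.0341. Without each of the other arrays in turn the adjusted p was between 0.151 and 0.195, and without chlorothalonil replicate 3 the log2 fold change was −0.87.

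**Figure D2:**
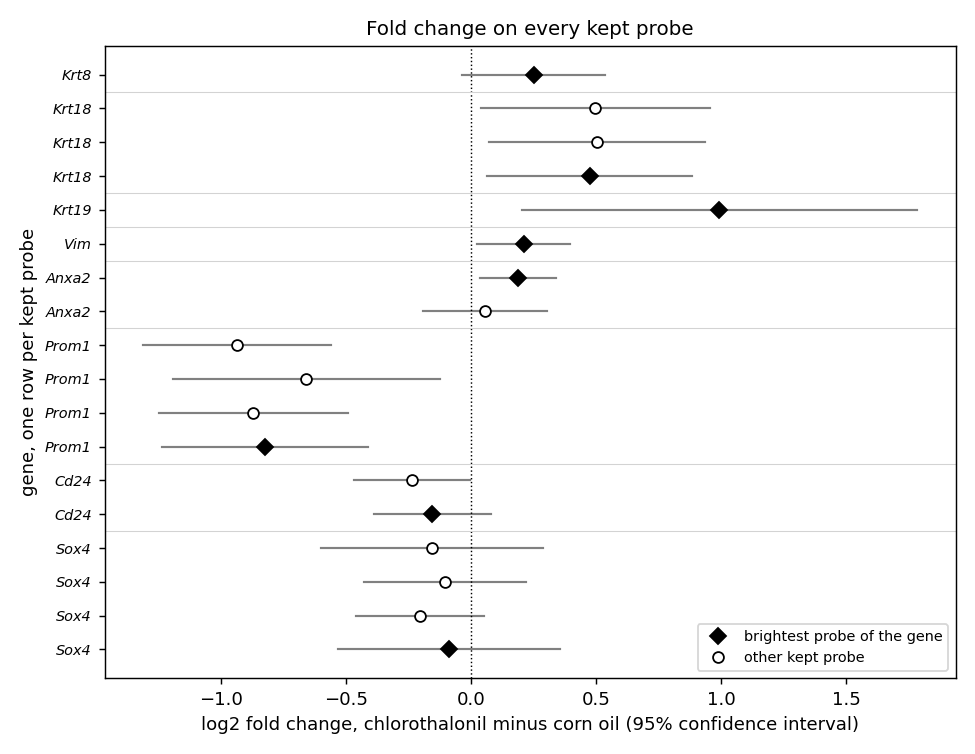
Log2 fold change, chlorothalonil minus corn oil, for each of the 18 kept probes with its 95% confidence interval from limma; diamonds are the brightest probe of each gene and open circles the others. The 4 Prom1 probes lie between −0.93 and −0.66, the 3 Krt18 probes between 0.48 and 0.50, and the 2 Anxa2 probes at 0.06 and 0.19.

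Cd24, a small glycoprotein anchored in the membrane that is often used together with prominin 1, had 2 probes. On the brighter its level was 38.9, 31.7 and 34.1 with chlorothalonil, against 38.3, 37.1 and 40.8 with corn oil. The groups overlapped because chlorothalonil replicate 1 was as high as corn oil. Cd24 thus had a log2 fold change of −0.15 ± 0.10 (SE), with a 95% confidence interval of −0.39 to 0.08 and an adjusted p of 0.434. With 1 array left out it ran from −0.23 without chlorothalonil replicate 1 to −0.09 without chlorothalonil replicate 2. The second probe gave −0.23 ± 0.09, with every chlorothalonil array below every corn oil array. Both progenitor surface markers therefore had values below 0, Cd24 with an interval that includes 0.

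Sox4, a SOX factor of progenitor cells, had 4 probes, 2 of them dim. On the brightest its level was 1.85, 1.73 and 2.30 with chlorothalonil, against 1.65, 2.16 and 2.46 with corn oil, and the groups overlapped. The log2 fold change was −0.09 ± 0.18 (SE), with a 95% confidence interval of −0.53 to 0.36 and an adjusted p of 0.839. The other probes gave −0.10, −0.15 and −0.20, and the groups were apart on the last, a dim probe whose levels were between 0.0470 and 0.0566 with chlorothalonil and between 0.0569 and 0.0664 with corn oil. Its sign is not settled: it was 0.0406 without corn oil replicate 3 and 0.0603 with spike-in scaling.

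The spread of the animals within a group was read for the tested genes as well. For 6 of the 8 genes the SD of the log2 signal was larger in corn oil rats than in chlorothalonil rats, against 53.0% of all features. It was 0.19 with chlorothalonil and 0.64 with corn oil for Krt19, and 0.13 with chlorothalonil and 0.31 with corn oil for Prom1. In both genes the larger corn oil SD rested on corn oil replicate 1. Its log2 signal was −1.13 for Krt19, beside −0.01 and −0.05 in corn oil replicates 2 and 3. For Prom1 it was 3.27, beside 3.82 and 3.79. Anxa2 and Cd24 had the larger SD with chlorothalonil. The genes were chosen with their values known, so the count of 6 is not a result about them.

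**Figure D3:**
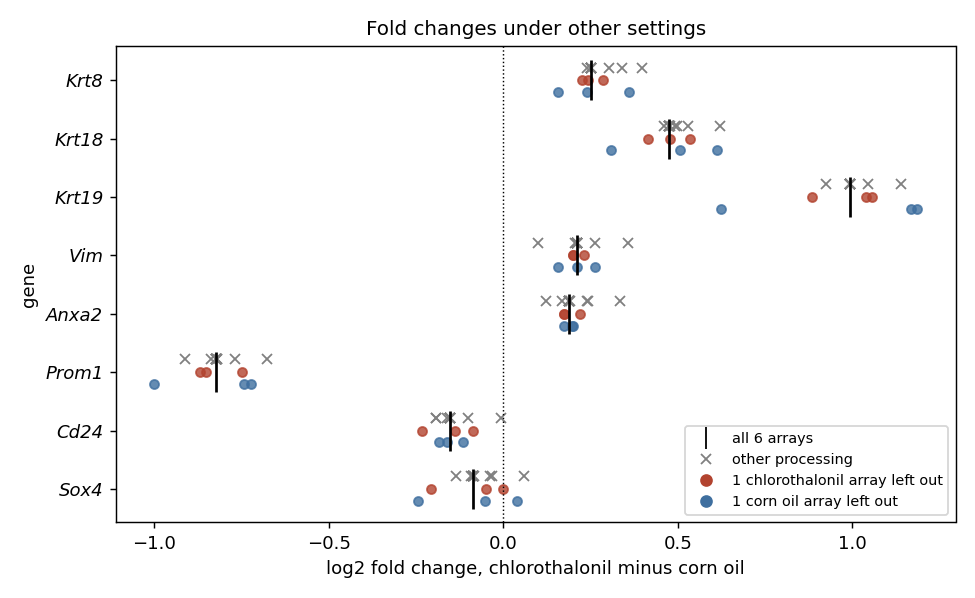
Log2 fold change of each tested gene with all 6 arrays (bars), with other processing (crosses) and with 1 array left out (dots, by group). The values keep their side of 0 for 7 genes and cross it for Sox4; the value of Krt19 is 0.63 without corn oil replicate 1.

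Genes of the same structures and pathways were read from 9 lists, and markers of other cell types from another 9. Of the 299 genes listed outside the 10, 249 were measured, and 2 rose and 1 fell in limma, with 50 of the 249 (20.1%) at an unadjusted p under 0.05, close to the 19.7% of all features. Dsc2, a desmosomal cadherin, rose by 0.80 ± 0.12 (SE) on the log2 scale, with an adjusted p of 0.0331. Its level was 0.0775, 0.0643 and 0.0797 with chlorothalonil, against 0.0466, 0.0425 and 0.0381 with corn oil, where 2 of the 3 arrays were well above background. Dsc2 thus entered the test through the chlorothalonil group alone, where its signal is higher. Its corn oil levels lay near the lowest levels flagged above background on those arrays, 0.0211 to 0.0338. Aldh1a1, a retinaldehyde dehydrogenase often used as a progenitor marker, rose by 0.61 ± 0.06, with an adjusted p of 0.0109. Its level was 180.3, 179.8 and 179.4 with chlorothalonil, against 117.6, 121.5 and 115.3 with corn oil. Sfrp2, a secreted inhibitor of WNT signalling, fell, with a log2 fold change of −0.55 ± 0.08 and an adjusted p of 0.0302. Its level was 0.522, 0.587 and 0.528 with chlorothalonil, against 0.840, 0.755 and 0.80 with corn oil. Without chlorothalonil replicate 1, 2 or 3 none of these 3 genes passed, with adjusted p between 0.0501 and 0.113, and without corn oil replicate 1, 2 or 3 only Aldh1a1 passed. Sfrp2 did not pass with spike-in scaling, at −0.40, and Dsc2 did not with normexp and quantile normalization together, at 0.33.

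In the list of keratins, desmosome and filament linkers, 1 of 17 measured genes rose, 0 fell and 16 did not pass, with a median log2 difference of 0.10. Another 5 listed genes were on the array but too dim to be kept, Krt5 and Krt17 among them. At an unadjusted p under 0.05 there were 7 of the 17, 5 higher and 2 lower. The lower ones were Krt4, a type II keratin of stratified epithelia, at −0.54 ± 0.14 (SE), and Cdh1, the epithelial cadherin, at −0.23 ± 0.09, both with the groups apart. Krt7, the type II keratin of ducts, was at 0.10 ± 0.07 (SE). The filament linker Plec was at 0.36 ± 0.07 (limma adjusted p = 0.0682), and Evpl, a linker of the cell envelope, at 0.34 ± 0.08, with 0.0963. Krt4, Cdh1, Krt7, Plec and Evpl were chosen after their values were seen.

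Of 16 genes of type III filaments and the cytoskeleton, limma called 0, and 4 were at an unadjusted p under 0.05, with a median of 0.02. Lmna, the lamin of the nuclear envelope, was at 0.24 ± 0.07 (SE, limma adjusted p = 0.136). Of 25 annexins, S100 proteins and repair surface proteins, limma called 0, and 2 were at an unadjusted p under 0.05, with a median of 0.08. Anxa4, a relative of annexin A2, was at 0.29 ± 0.09 (limma adjusted p = 0.168). S100a10, the binding partner of annexin A2, was at 0.13 ± 0.07 (limma adjusted p = 0.367), and was chosen after its value was seen.

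Among 25 SOX, kidney development and immediate early factors, limma called 0, and 5 were at an unadjusted p under 0.05, 2 higher and 3 lower, with a median of 0.00. Jun, a subunit of AP-1, was at −0.44 ± 0.10 (SE, limma adjusted p = 0.085). Sox11, a SOX factor of the same subgroup as Sox4, was well above background on every chlorothalonil array and on no corn oil array. It thus entered the test through the chlorothalonil group alone, where its signal is higher. Its mean with chlorothalonil was at least 1.41-fold above that with corn oil. That bound sets the chlorothalonil mean against the lowest signal flagged above background on each corn oil array, or the probe's own where that was higher. It bounds the means only: chlorothalonil replicates 2 and 3, at −4.99 and −4.93, lay below the limit of corn oil replicate 3, −4.89. The measured log2 means of Sox11 were −4.78 with chlorothalonil and −5.71 with corn oil. Their difference did not pass (limma adjusted p = 0.0947). Sox2, well above background on all 6 arrays, was at −1.02 ± 0.27 (limma adjusted p = 0.12), with every chlorothalonil array below every corn oil array. Sox2 and Sox11 were chosen after their values were seen. For the Notch pathway, which guides tubular cell fate, limma called 0 of 15, and 2 were at an unadjusted p under 0.05, with a median of 0.03 and the target gene Heyl at 0.37 ± 0.14. Of 12 WNT and Hippo genes, Sfrp2 fell and 11 did not pass, with a median of 0.06. At an unadjusted p under 0.05 there were 4 of the 12, 3 higher and 1 lower. Among the higher ones, Axin2 was well above background on 2 of the corn oil arrays and entered the test through the chlorothalonil group alone. Of 24 growth factors and receptors of tubular repair, limma called 0, and 6 were at an unadjusted p under 0.05, 2 higher and 4 lower, with a median of 0.01. Igf1, a growth factor, was at −0.77 ± 0.17 (limma adjusted p = 0.0881).

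Among the relatives of prominin and Cd24 and other progenitor markers, 1 of 9 measured genes rose, Aldh1a1, and 8 did not pass, with a median of 0.18. Prom2, the paralog of Prom1, was at 0.51 ± 0.21 (SE, limma adjusted p = 0.265), beside −0.82 ± 0.17 for Prom1; the difference between them was not tested, and Prom2 was chosen after its value was seen. Of 30 differentiated proximal tubule markers, limma called 0, and 7 were at an unadjusted p under 0.05, 3 higher and 4 lower, with a median of 0.05. Slc13a3, a dicarboxylate transporter, was at 0.34 ± 0.06 (limma adjusted p = 0.0507). Their summed level was between 3783 and 4205 times the 75th percentile with chlorothalonil, against 3565 to 3743 with corn oil. Without Fbp1, a gluconeogenic enzyme and the brightest of them, the other 29 summed to 3184 to 3581 with chlorothalonil, against 3078 to 3209 with corn oil, and overlapped.

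**Figure D4:**
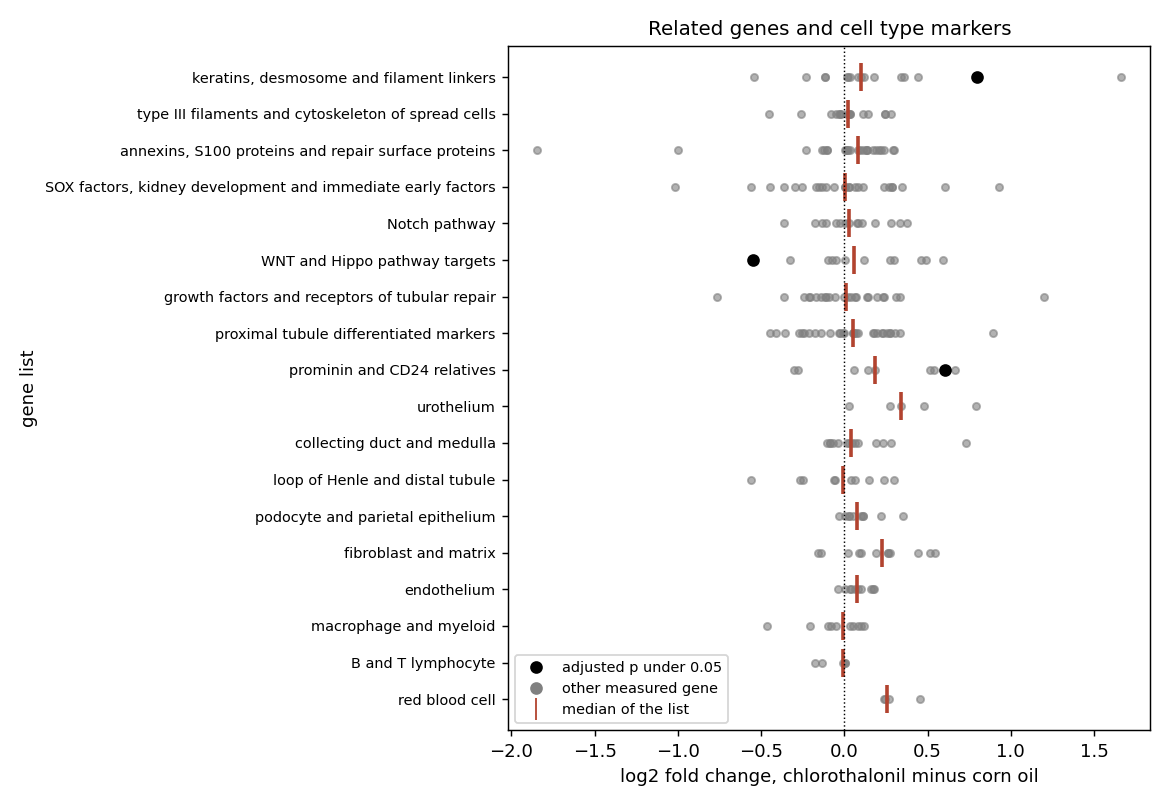
Log2 fold change, chlorothalonil minus corn oil, of every measured gene in the 9 lists of related genes (top) and the 9 lists of cell type markers (bottom); black dots passed an adjusted p of 0.05, grey dots did not, and bars are list medians. List medians lie between −0.01 and 0.34, and the black dots are Dsc2, Aldh1a1 and Sfrp2.

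Markers of other cell types of the cortex and its surroundings were read on the same arrays, and 0 of them passed in limma, with 12 at an unadjusted p under 0.05. By list, that share was 0% for endothelial and lymphocyte markers and 100% for the 4 red blood cell transcripts. In the other lists it was between 7.14% and 40%, against 19.7% of all features. Of the 10 urothelial markers, 5 were measured, all with values above 0 and a median of 0.34, while Upk2, Krt5 and Psca were not kept as too dim. Their summed level was 1.11 to 1.34 with chlorothalonil, against 1.08 to 1.21 with corn oil, so the ranges overlapped. Without the transcription factor Gata3, the brightest gene of the list, which collecting duct cells also express, the other 4, among them the uroplakins, summed to 0.421 to 0.484 with chlorothalonil, against 0.307 to 0.391 with corn oil, and were apart. The part of urothelium in the keratin values was not tested. Upk1a, an uroplakin, was at 0.48 ± 0.16 (SE). Collecting duct markers, of which 14 of 15 were measured, summed to 288.8 to 384.8 with chlorothalonil, against 259.3 to 345.7 with corn oil, with a median of 0.04. The anion exchanger Slc4a1, which red blood cells also carry, was at 0.73 ± 0.21. The markers of podocytes and parietal epithelium, all 10 measured, summed to 45.5 to 53.7 with chlorothalonil, against 40.9 to 47.5 with corn oil, with Cdkn1c at 0.35 ± 0.12. Those of the loop of Henle and distal tubule, 10 of 12 measured, summed to 404.6 to 507.3 with chlorothalonil, against 363.0 to 481.2 with corn oil, with Calb1 at −0.56 ± 0.14.

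The summed fibroblast and matrix markers did not overlap, at 86.5 to 104.8 with chlorothalonil and 66.1 to 80.5 with corn oil, but the separation rested on Mgp, a matrix protein that inhibits calcification and the brightest gene of the list. Without it the other 11 genes summed to 35.0 to 43.5 with chlorothalonil and 25.4 to 38.4 with corn oil, which overlapped. In that list 12 of 14 were measured and Lum and Postn were too dim, 10 had values above 0, the median was 0.23 and Mgp was at 0.52 ± 0.12 (SE). The 4 measured red blood cell transcripts were also apart, at 555.8 to 602.4 with chlorothalonil and 475.5 to 497.2 with corn oil, and stayed apart without the brightest, with a median of 0.26 and Slc25a37 at 0.45 ± 0.09. The sums of the other cell type lists overlapped between groups. Endothelial markers, 10 of 12 measured, summed to 80.6 to 93.8 with chlorothalonil and 78.6 to 91.2 with corn oil, with Cdh5 at 0.17 ± 0.09. Macrophage and myeloid markers, 10 of 12 measured, summed to 108.4 to 135.4 with chlorothalonil and 104.9 to 119.6 with corn oil, with Adgre1 at −0.47 ± 0.12. Of the 10 lymphocyte markers 5 were measured, with a median of −0.01, and Cd79b, Cd3e and Cd2 were too dim. The part of fibroblast cells in the values of Vim and Anxa2 was not tested.

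By the distance between profiles over the 6 arrays, each centred on its own mean, the 3 named genes most like Krt19 were Cfap68, Tnxa-ps1 and Osgin1, of 11311 genes compared. Their root mean square distances from Krt19 were 0.15, 0.16 and 0.17 log2 units, and their log2 fold changes were 1.02 ± 0.23, 0.70 ± 0.32 and 0.72 ± 0.27 (SE). None of the 3 passed the threshold in limma, with adjusted p of 0.0827, 0.306 and 0.23. Tnxa-ps1 is a pseudogene, so its signal may come from related copies. The 3 most like Prom1 were Aebp1, Spaca4 and Pwwp2a, at distances of 0.07, 0.09 and 0.10. Aebp1, a carboxypeptidase-like matrix protein, fell, with a log2 fold change of −0.75 ± 0.13 and an adjusted p of 0.0459, and Spaca4 and Pwwp2a were at −0.72 ± 0.15 and −0.74 ± 0.16, with 0.075 and 0.0796. Aebp1 did not pass with quantile normalization, with the mean of its probes, or without any 1 array other than corn oil replicate 1. The likeness is over 6 arrays only.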

How the data were processed

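RNA of rat renal cortex was measured on Agilent 1-colour arrays, 1 per animal. Per the file headers, intensity was extracted with Agilent Feature Extraction, version 10.7 per the submitters' processing notes, where the processed signal is the spot's signal after the extractor subtracted background and a spatial trend. Its 75th percentile was 839.8 to 928.9 on chlorothalonil arrays and 898.0 to 958.0 on corn oil arrays. A ratio fills the value table deposited by the authors, on a linear scale: the values show it to be that signal over a constant close to each array's 75th percentile. Its scaling is not stated in the labels, and its column medians were 0.105 to 0.106 with chlorothalonil and 0.107 to 0.112 with corn oil. The extractor's flags, deposited as other values of 0 or 1, mark spots well above background.

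Each array held 61537 probes other than controls, of which 40960 to 41711 were well above background with chlorothalonil and 38234 to 41108 with corn oil. No probe was saturated, and 0 to 9 outlier spots per array were left out. Pearson's r across features was 0.994 to 0.995 among chlorothalonil arrays, 0.988 to 0.992 among corn oil arrays and 0.986 to 0.990 between groups. Log2 of the processed signal minus the array's 75th percentile was used. Probes well above background on all 3 arrays of a group and free of outlier flags on 2 or more arrays of both groups were kept (39862), named through RefSeq accessions without versions (28193 probes matched), and the brightest per gene was tested with limma 3.58.1 in R 4.3.3 (lmFit, eBayes, no covariate). P-values were adjusted over all features tested, and the fit was tested on simulated data.

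The members and lists were chosen with earlier results of these data known. The genes named are the 10 members, up to 3 genes past the threshold per list or the one with the smallest p, and the 3 profiles most like Krt19 and Prom1. Not every gene that this rule names is reported here. Other settings are given in the closing section. The 3 samples per group are biological replicates per the design text. The same replicate numbers in both groups are not taken to pair the animals: no label says so, and the check of same-numbered arrays is in the closing section.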

Additional observations from a re-analysis of the deposited data

How the results depend on the processing

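Over 17 alternatives, Krt8, Krt18, Krt19, Vim, Anxa2, Prom1 and Cd24 kept their sign. The sign of Sox4 (−0.09) was reversed at 0.0603 with spike-in scaling and 0.0406 without corn oil replicate 3, the top of a range from −0.246 when an array was left out. Prom1 passed in 3 alternatives, at −0.91 with normexp and quantile normalization, −0.82 with a trended and robust variance prior and −1.0 without corn oil replicate 1, and its adjusted p ran from 0.0275 to 0.195. The count of members past the threshold, 0 in limma with 5 at an unadjusted p under 0.05, was 1 in each of these 3, and 0 to 1 when an array was left out. Of all 29115 features, 3.12% passed and 19.7% had an unadjusted limma p under 0.05. In these 3 settings 1382, 1315 and 402 features passed. The genes were chosen with their values known, so these counts are not a result about them. The 909 changed features became 1382 with normexp and quantile normalization together, 172 with no filter on dim probes, and 127 to 402 when an array was left out. The 3 listed genes became 9 with normexp and quantile normalization together, 10 with the trended prior, 0 with no filter, and 0 to 1 when an array was left out. With the replicate block, 0 features and 0 listed genes passed in limma, while 5271 features had an unadjusted p under 0.05. Same-numbered arrays had deviations that correlate at 0.09, 0.02 and 0.05, against −0.09 to 0.05 for arrays of different numbers. Deviations centred within each group of 3 cannot show whether the animals were paired, and no label pairs them. Among the changed features 41.6% were higher, against 54.2% with median scaling and 72.4% with spike-in scaling. Normexp with quantile normalization starts from the median spot signal, so 3 choices change at once. It, spike-in scaling and the list sums without the brightest gene were chosen after seeing the data. The planned normexp on the mean spot signal was not run because the files used here give the median spot signal, nor was the slide as a block, which could not be fitted. Leaving out an array kept the features and probes of the full set. The causes were not tested. Arrays limit the precision by their number, and Krt20 by signal over background.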
